A study of Bos taurus with 18 samples.

Results

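Bovine satellite cells, taken from serum-free growth medium at 0 h and from serum-free differentiation medium 72 h later, are compared here gene by gene. The comparison rests on 6 of the 18 libraries of the series, 3 in each group, and covers the 14637 of 27607 gene identifiers that passed an expression filter. The 0 h group, SFGM, held cells in serum-free growth medium on collagen-coated flasks. The 72 h group, SFDM, held cells moved from SFGM to serum-free differentiation medium with a DMEM/F-12 base. All cells came from Belgian Blue cattle, neither medium contained serum, and poly(A) RNA was read with a stranded mRNA kit. Some results are set beside 4 further groups of 3 libraries. Cells moved from SFGM to serum-free base medium (SFB) or to the DMEM-based form of the differentiation medium (DMEM) were sampled at 72 h. Cells in growth medium with 20% serum (GM) were sampled at 0 h, and cells moved from GM to differentiation medium with 2% serum (DM) at 72 h. The labels call the replicates biological triplicates and name no animals, so a p-value here reflects the variation among these cultures, which may be technical. No SFGM library was taken at 72 h, and medium and time in culture cannot be told apart.

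Satellite cells are the stem cells of skeletal muscle. When they differentiate they leave the cell cycle, switch from the early myogenic factors to myogenin, fuse into multinucleate myotubes, and build sarcomeres together with the calcium release and energy supply that contraction needs. In culture this is usually started by lowering serum, and the series asks whether a serum-free medium can start it without that step. Gene names were not matched to the Ensembl identifiers of the table. The account is therefore by groups of genes defined by their level, by the size of their change, or by switching between low and high levels, and marker genes of muscle or of other cell types were not examined.

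The 6 libraries held 16162525 to 28589018 counts, the lowest in SFDM replicate A. Replicates lay 0.268 to 0.293 root mean square log2 units apart in SFGM and 0.341 to 0.429 in SFDM. An SFDM library and an SFGM library were 1.2 to 1.24 apart, so the groups did not overlap. Values below are CPM, counts brought to a common library size after scaling by the trimmed mean of M-values (TMM). They are counts per gene, not per length, so where genes are ranked or grouped by CPM the order is one of counts and reflects transcript length as well as expression.

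More than 3 in every 5 genes passed the test between SFDM and SFGM. Of the 14637 genes, 4094 rose in SFDM (28.0%) and 4893 fell (33.4%), 61.4% in all, at an adjusted p under 0.05 in edgeR's quasi-likelihood test with Benjamini-Hochberg adjustment. Ignoring the test, 4596 genes had all 3 SFDM libraries above all 3 SFGM libraries (31.4%), and 5663 had all 3 below (38.7%). Rises made up 45.6% of the genes that passed, 50.9% with RLE scaling and 35.4% with scaling by library totals alone. The median log2 fold change of all genes was -0.063, 0.004 and -0.204 under these scalings, so small changes have no fixed direction. RNA was measured per library, and in such bulk samples a change in the number of cells of a type and a change of RNA per cell cannot be told apart.

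**Figure D1:**
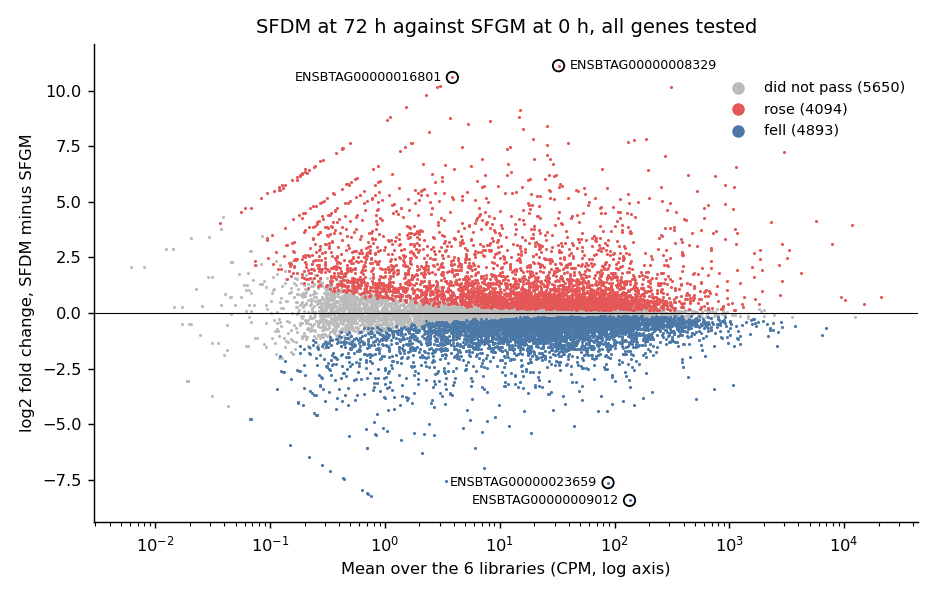
Each point is a gene, placed by its mean CPM over the 6 libraries (log axis) and its log2 fold change in SFDM minus SFGM, coloured by the edgeR test. The 4094 rises reach further from 0 than the 4893 falls, and the 4 named identifiers are circled.

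With the scaling and fit used, falls were the more numerous changes, but the large changes were mostly rises. Among the rises, 2175 were under 2-fold, 954 were 2- to 4-fold, 667 were 4- to 16-fold and 298 exceeded 16-fold. Among the falls the same classes held 3332, 1185, 309 and 67 genes. Rises of at least 4-fold thus numbered 965 against 376 falls, a ratio that kept its direction with RLE scaling (1009 against 352) and with scaling by totals (879 against 459). The edge at 2-fold divides a continuum, with rises at log2 values of 0.999 and 1.001 on its 2 sides.

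A stricter test asks whether a change exceeds a stated fold, rather than 0. Beyond 1.5-fold, 2058 genes passed upward (14.1%) and 1976 downward (13.5%). Beyond 2-fold there were 1363 (9.31%) and 933 (6.37%), and beyond 4-fold 617 (4.22%) and 199 (1.36%). These tests were added after the data were seen and were run with TMM scaling alone. At 1.5-fold the directions were nearly balanced, and at 4-fold 3 genes rose for each that fell.

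The direction also varied with the level of the gene, taken as the mean over the 6 libraries. Of the 1855 genes under 1 CPM, 519 rose (28.0%) and 270 fell (14.6%). Between 1 and 10 CPM, 1035 of 3559 rose and 1014 fell. From 10 to 100 CPM falls led, with 1900 rises (26.4%) and 2731 falls (38.0%) among 7194 genes. The same held at 100 CPM or more, where 640 of 2029 genes rose (31.5%) and 878 fell (43.3%). The share of rises among changed genes was 65.8% in the lowest band and 42.2% in the highest. The filter used all 18 libraries, so a gene under 1 CPM here could pass through a group where it was high, and 4 of the 6 groups were taken at 72 h. With no filter the shares were 66.0% and 42.3%, and with the filter and fit on the 6 libraries alone 62.4% and 47.3%, both added after the data were seen. With RLE scaling they were 68.6% and 47.3%, and with scaling by totals 59.5% and 33.1%. Among genes of 1 to 10 CPM the share of rises was 50.5%, 55.1% and 41.7% under the 3 scalings, so neither direction led there. From 10 to 100 CPM it was 41.0%, 47.2% and 29.7%. Rises of at least 4-fold outnumbered falls of that size in every band under each of the 3 scalings, with 292 against 119 under 1 CPM and 122 against 27 at 100 CPM or more. Low genes were measured less precisely, with a median 95% interval 2.04 log2 units wide under 1 CPM and 0.34 at 100 CPM or more.

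**Figure D2:**
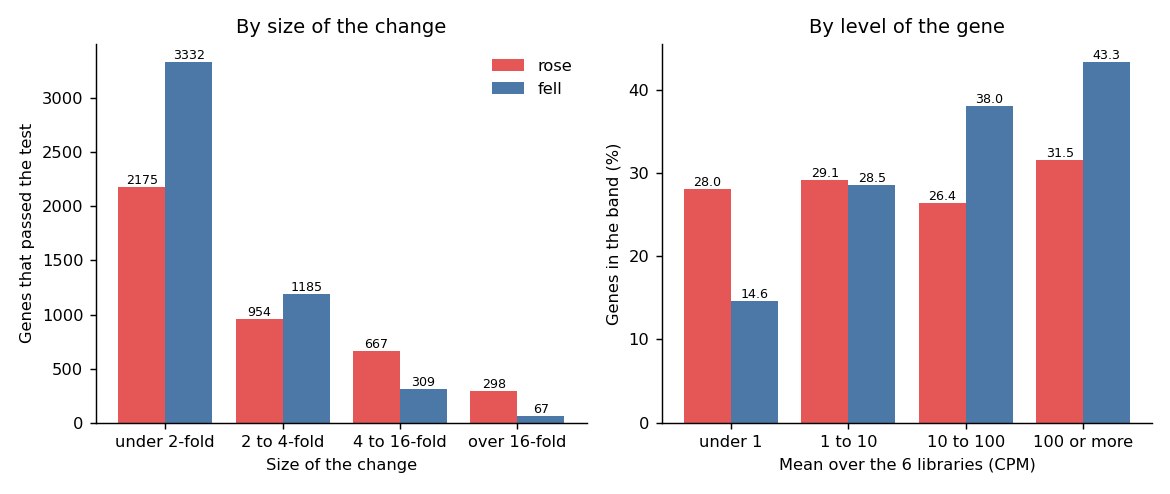
Left, the number of genes that rose (red) or fell (blue) in SFDM against SFGM by the size of the change. Right, the percent of genes that rose or fell by mean level over the 6 libraries: falls lead for changes under 4-fold and for genes of at least 10 CPM with the scaling used, rises lead for changes of at least 4-fold and for genes under 1 CPM.

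SFDM libraries were more concentrated on a few transcripts. The 20 identifiers with the most counts in each library took up 12.1%, 12% and 12.5% of the counts in SFGM replicates A, B and C, and 18.2%, 17.7% and 17.2% in SFDM. Every SFDM library was above every SFGM library, and the means were 17.7% ± 0.5 and 12.2% ± 0.265 (SD, n = 3, exact two-sided permutation p = 0.1). That p is the smallest that 3 against 3 libraries allow. The 100 top identifiers held 30.4% ± 0.551 in SFDM and 23.5% ± 0.321 in SFGM (SD, n = 3, exact permutation p = 0.1). Fewer identifiers reached 100 CPM of the library total in SFDM, at 1866 to 1952 against 2074 to 2120, while slightly more reached 1 CPM, at 12639 to 12711 against 12539 to 12582. Identifiers with any count numbered 16254 to 17129 in SFDM and 16794 to 16888 in SFGM. At an equal depth of 16162525 counts the expected numbers were 16427 ± 156 and 16343 ± 50.9 (SD, n = 3, exact permutation p = 0.5).

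Of the 100 identifiers with the most counts in SFGM, 57 were also among the top 100 in SFDM. The other 43 of the SFDM list were all genes that rose, 30 of them at least 4-fold, with a median log2 fold change of 2.95. Together they went from 1.55% of the counts in SFGM to 9.21% in SFDM. They were chosen for high counts in SFDM, so these shares are a description. In the serum-based cultures, which had no part in the choice, the same 43 held 1.41% of GM counts and 10.5% of DM counts. There 35 were among the top 100 in DM and 1 in GM.

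The 965 genes that rose at least 4-fold made up 1.90%, 1.87% and 1.89% of the counts in SFGM replicates A, B and C, and 17.3%, 17.0% and 16.7% in SFDM. Of the gain of 15.1 percentage points, 10 identifiers supplied 46.4% and 50 supplied 76.6%. At the lower limit of 2-fold, 1919 rises gained 19.8 points, of which 10 identifiers supplied 36.2% and 50 supplied 63.2%. The loss was more evenly spread at that limit: the share of 1561 falls dropped by 8.34 points, of which 10 identifiers made up 21.6% and 50 made up 44.2%. The rises of at least 2-fold went from 5.14% ± 0.0336 to 25% ± 0.179, and the falls of that size from 12.5% ± 0.0460 to 4.19% ± 0.0258 (SD, n = 3). These groups were picked on the same libraries, and no test is given for them.

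The identifiers with the largest changes ran from near absence to clear expression or the reverse. They are the 2 largest rises and the 2 largest falls among 7285 identifiers that passed the test, reached a mean of 5 CPM in SFDM or in SFGM, and had no SFDM library within the range of SFGM. ENSBTAG00000008329 had 1, 1 and 0 counts in SFGM replicates A, B and C and 816, 1664 and 1675 in SFDM. In CPM the SFDM libraries read 52.6, 61.8 and 80.7. The fold from the counts was 2720, with an exact 95% counting interval of 753 to 22500 (log2 fold change 11.12, SE 0.420, edgeR adjusted p = 3.7e-13). The SE is derived from the test's F and is narrower than the counting interval, which is the better guide to precision here. The level of this identifier in SFDM was above that in every other medium: 31.3 ± 3.81 CPM in DMEM, 11.2 ± 2.84 in SFB, 12.7 ± 0.713 in DM and 0.0341 ± 0.0590 in GM (SD, n = 3). It was 5.81-fold above SFB (edgeR adjusted p = 3.99e-08) and 2.08-fold above DMEM (edgeR adjusted p = 0.000165).

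ENSBTAG00000016801 had no count in any SFGM library and 7.80, 8.03 and 7.37 CPM in SFDM replicates A, B and C. Set against a floor of 3 counts over the 3 SFGM libraries, it was at least 213-fold higher in SFDM (edgeR adjusted p = 4.46e-11). It also had no count in GM and stood at 14.0 ± 0.686 CPM in DM, 2.21 ± 0.254 in DMEM and 0.183 ± 0.0901 in SFB (SD, n = 3). This identifier separated the serum-free media most clearly of the 4, with SFDM 42.3-fold above SFB and 3.50-fold above DMEM (edgeR adjusted p = 1.64e-09 and 5.88e-07).

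ENSBTAG00000009012 fell furthest. It stood at 275, 279 and 253 CPM in SFGM replicates A, B and C, and at 0.839, 0.743 and 0.771 in SFDM. The counts of 22313 and 49 gave a 348-fold lower level in SFDM, with a counting interval of 263 to 470 (log2 fold change -8.43, SE 0.128, edgeR adjusted p = 1.4e-17). Here too the SE is narrower than the counting interval. All 72 h media were low, at 1.46 ± 0.331 CPM in SFB, 1.90 ± 0.172 in DMEM and 1.18 ± 0.102 in DM (SD, n = 3). The 0 h media were far apart, since GM held 16.8 ± 1.15 CPM, a 16-fold lower level than SFGM (edgeR adjusted p = 6.35e-15).

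ENSBTAG00000023659 went from 167, 160 and 197 CPM in SFGM to 1.29, 0.855 and 0.578 in SFDM, a 200-fold lower level with a counting interval of 154 to 266 (log2 fold change -7.63, SE 0.345, edgeR adjusted p = 5.37e-12). Its levels at 72 h were 0.980 ± 0.461 CPM in SFB, 1.77 ± 0.708 in DMEM and 3.49 ± 1.06 in DM, and GM held 62.2 ± 19.3 at 0 h (SD, n = 3). The difference between SFDM and SFB did not pass the test (log2 difference -0.17, SE 0.509, edgeR adjusted p = 0.826), nor did that between SFDM and DMEM (-1.03, SE 0.451, edgeR adjusted p = 0.0709).

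**Figure D3:**
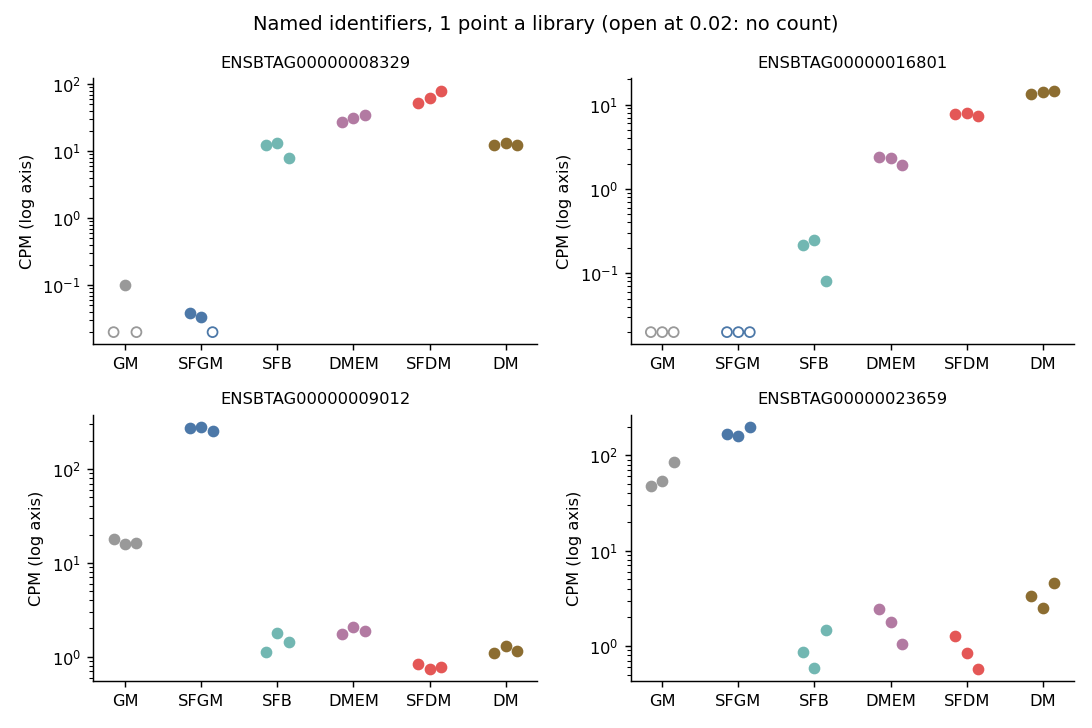
CPM (log axis) of the 4 named identifiers in all 18 libraries, 1 point a library, by medium, with open points at 0.02 for libraries without a count. The upper identifiers are near absent in both 0 h media and the lower ones are highest in SFGM.

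A smaller group of identifiers switched between low and clear expression. By the limits of a mean below 1 CPM in one group and at least 10 CPM in the other, 60 identifiers were switched on in SFDM and 11 were switched off. The identifiers switched on had medians of 0.447, 0.463 and 0.448 CPM in SFGM replicates A, B and C, and 20.0, 20.5 and 17.9 in SFDM. Their group means reached from 10.1 to 625 CPM in SFDM. The nearest identifier outside the SFDM limit had 9.36 CPM there. At the SFGM limit the nearest outside had 1.02 CPM and the highest inside 0.924. All 71 passed the edgeR test, as the limits nearly require.

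Most identifiers switched on in SFDM were also low before and high after differentiation with serum. In GM, whose libraries had no part in the choice, 55 of the 60 were below 1 CPM and none reached 10. In DM 41 reached 10 CPM, 15 lay between 1 and 10 and 4 stayed below 1, with a median of 16.2 CPM. Between DM and GM 59 of the 60 rose, where 34.2% of all genes did. The difference between the SFDM and the DM response passed its test for 36 of them, 17 with the larger response in SFDM and 19 with the smaller, where 19.0% and 20.9% of all genes passed in these directions.

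In the other serum-free media the same identifiers reached lower levels. In DMEM 32 of the 60 had at least 10 CPM, with a median of 10.3, and in SFB 12 did, with a median of 5.19. SFDM was higher than SFB for 56 and lower for 3, with a median log2 difference of 2.04, where 14.7% of all genes were higher and 19.9% lower. Against DMEM 44 were higher in SFDM and 7 lower, with a median difference of 1.12, where 22.4% were higher and 24.2% lower. The 60 were chosen for high levels in the SFDM libraries, which favours these directions.

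The 11 identifiers switched off had medians of 16, 16.3 and 14.3 CPM in SFGM replicates A, B and C, and 0.645, 0.632 and 0.578 in SFDM. In DM against GM 10 of them fell, where 35.5% of all genes did. In GM the median was 5.03 CPM, and 4 of the 11 reached 10 CPM. At 72 h the medians were 1.55 CPM in SFB, 1.86 in DMEM and 1.18 in DM. SFDM was lower than SFB for 9 of the 11 and lower than DMEM for 9, where 19.9% and 24.2% of all genes were lower, and higher for none. They were chosen for low levels in SFDM, which favours these directions.

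**Figure D4:**
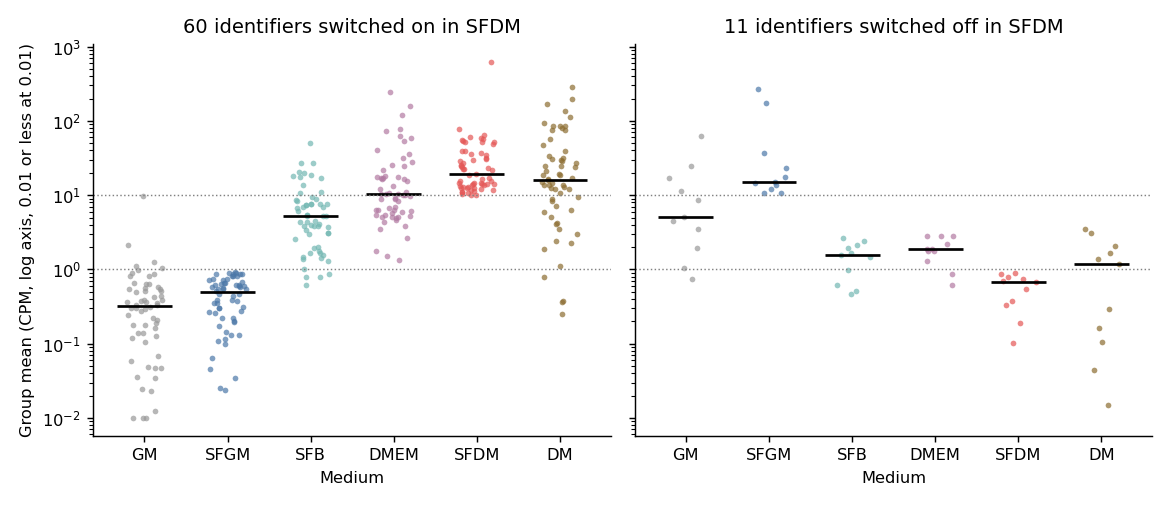
Group mean CPM (log axis) in each medium of the 60 identifiers switched on in SFDM (left) and the 11 switched off (right), 1 point an identifier, with the median as a bar and the limits of 1 and 10 CPM dotted. Identifiers switched on have medians of 19.0 CPM in SFDM, 10.3 in DMEM and 5.19 in SFB, and those switched off are below 1 CPM in SFDM and above 1 CPM at the median in the other 72 h media.

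SFDM also had the larger median response over whole classes of genes, while DMEM and SFB changed places between classes. For rises over 16-fold in SFDM the median log2 fold change was 5.20 in SFDM, 4.29 in DMEM and 3.44 in SFB, each against SFGM. It was 2.7, 2.07 and 1.92 for the rises of 4- to 16-fold. Falls over 16-fold had medians of -5.07, -3.37 and -3.69, and falls of 4- to 16-fold of -2.60, -2.23 and -1.99. The 3 comparisons share the SFGM libraries, and the classes were set on SFDM, which favours a larger value there. Of the rises over 16-fold, 40 had no count in a group, and with these at their bounds the SFDM median was 4.96. With the 12 such falls at their bounds it was -4.58. The DMEM and SFB medians were not computed at bounds, so these 2 values cannot be set against them.

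At 72 h, SFDM was compared directly with the 2 media that also started from SFGM. Of the 298 genes that rose over 16-fold, 248 stood higher in SFDM than SFB and 7 stood lower (83.2% and 2.35%). Of the 2175 that rose under 2-fold, 553 were higher and 286 lower (25.4% and 13.1%). Against DMEM 193 of the 298 were higher in SFDM and 25 lower, and of the 2175 under 2-fold 723 were higher and 392 lower. Over all genes 14.7% were higher and 19.9% lower than in SFB, and 22.4% and 24.2% than in DMEM. Which direction led over all genes depended on the scaling. The choice of classes on SFDM favours higher values there for rises and lower ones for falls. Falling genes differed in the corresponding way for the large changes: of the 67 over 16-fold, 26 were lower in SFDM than in SFB and 31 lower than in DMEM, and none were higher in either. Falls of 2- to 4-fold went both ways against DMEM, with 417 of 1185 lower in SFDM and 321 higher, but mostly one way against SFB, with 563 lower and 31 higher. As shares of the library, the rises of at least 2-fold made up 25% in SFDM, 15.7% ± 0.909 in SFB and 15.4% ± 0.127 in DMEM (SD, n = 3).

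Most genes of these classes moved the same way in the serum-based cultures, whose libraries did not set the classes and entered only the filter, the scaling and the shared spread. Of the 1919 rises of at least 2-fold in SFDM, 1622 rose in DM against GM (84.5%), 82 fell (4.27%) and 215 did not pass, where 34.2% of all genes rose and 35.5% fell. Of the 1561 genes that fell at least 2-fold, 1216 fell in DM (77.9%), 114 rose (7.30%) and 231 did not pass. The share that moved the same way went up with the size of the rise, from 67.5% of the rises under 2-fold to 82.5%, 86.2% and 87.2% in the larger classes. For falls it was 69.4%, 78.6%, 74.4% and 80.6%. These percentages count calls in DM, and small changes are harder to call. Agreement and the power to call were not told apart. The share of the rises was 4.91% ± 0.0168 in GM and 26.6% ± 0.837 in DM, and that of the falls 12.2% ± 0.0389 and 4.75% ± 0.0225 (SD, n = 3, exact permutation p = 0.1 for each).

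At the class medians, rises were about as large with serum as without it, while the largest falls were smaller with serum. Rises of 2- to 4-fold, 4- to 16-fold and over 16-fold in SFDM had median log2 fold changes of 1.36, 2.7 and 5.20 there, and of 1.47, 2.82 and 5.44 in DM against GM. With genes that had no count in a group at their bounds, the last pair was 4.96 and 5.08. Falls of 2- to 4-fold had medians of -1.32 in SFDM and -1.33 in DM. Falls of 4- to 16-fold had medians of -2.60 in SFDM and -1.85 in DM, and falls over 16-fold -5.07 and -3.07, or -4.58 and -2.84 at the bounds. Choosing classes on SFDM favours the larger value in SFDM for rises and falls alike. The classes include genes that moved the other way or did not pass in DM. The 1622 rises of at least 2-fold shared with DM had medians of 2.04 in SFDM and 2.41 in DM. Their difference passed for 729, 220 larger in SFDM and 509 smaller. The 1216 shared falls had -1.45 and -1.85, with 224 larger in SFDM and 429 smaller. Of all genes 19.0% passed upward and 20.9% downward. Requiring a call in DM favours larger values there.

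The starting levels of the strongly falling genes differed between the growth media. Of the 376 genes that fell at least 4-fold in SFDM, 187 were higher in SFGM than in GM (49.7%) and 71 lower (18.9%), where 19.6% and 19.4% of all genes were. Their median level was 5.59 CPM in SFGM and 4.42 in GM at 0 h, and 0.651 in SFDM and 0.987 in DM at 72 h. The SFGM libraries entered both the choice of these genes and this comparison, which favours higher values in SFGM. The response differed from that in DM for 210 of the 376, 171 with the larger fall in SFDM (45.5%) and 39 with the smaller (10.4%), where the difference was negative for 20.9% of all genes and positive for 19.0%. These genes were chosen for their fall in SFDM, which favours the larger fall there. Among the 965 rises of at least 4-fold, 212 rose more in SFDM than in DM (22%) and 266 rose less (27.6%). Over all genes the difference was positive for 19.0% and negative for 20.9%. The larger group, with the smaller rise in SFDM, ran against the direction that choosing rises on SFDM favours. These splits by size of response were run under TMM scaling alone. Over all genes the balance of this difference turned with RLE scaling, to 2995 positive and 2913 negative.

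**Figure D5:**
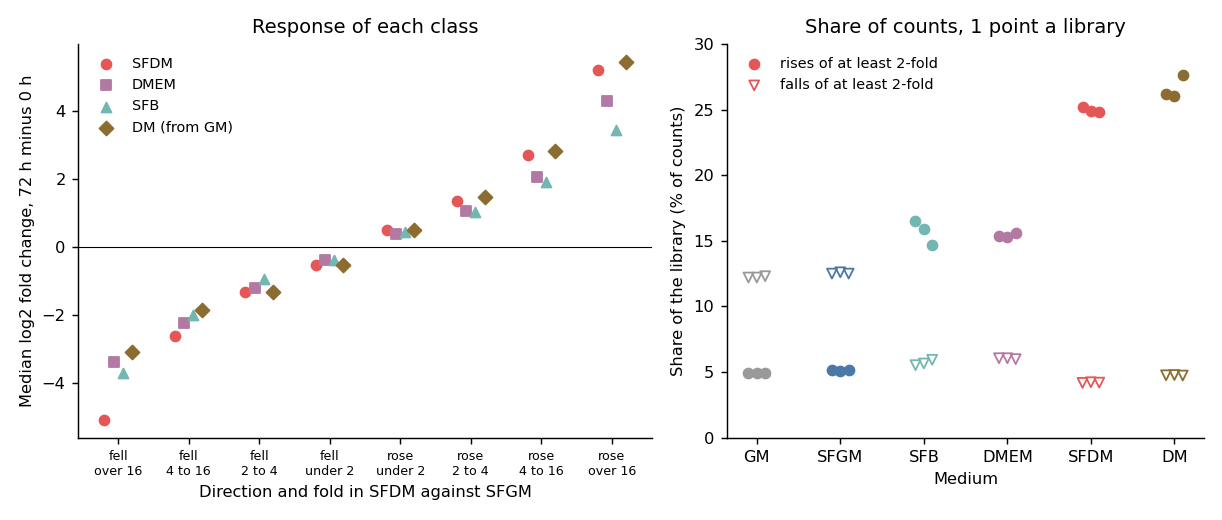
Left, the median log2 fold change of each class of genes in SFDM, DMEM and SFB against SFGM and in DM against GM, with the classes set by SFDM against SFGM. Right, the share of each library taken by the 1919 rises (filled circles) and 1561 falls (open triangles) of at least 2-fold, 1 point a library: the rises hold 24.8% to 25.2% in SFDM and 26% to 27.6% in DM, above all SFB and DMEM libraries.

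Some genes took opposite directions with and without serum. Having been chosen by calls in opposite directions, they carry no separate test of the difference. The 82 genes with a rise of at least 2-fold in SFDM and a fall in DM had median log2 fold changes of 1.63 and -1.60. Their median level went from 2.30 CPM in SFGM to 7.75 in SFDM, and from 3.82 in GM to 1.20 in DM. In 65 of them the fall in DM was itself at least 2-fold. The 114 genes that fell in SFDM and rose in DM had medians of -1.58 and 1.24, and went from 13.6 to 3.19 CPM without serum and from 4.85 to 14.7 with it. Of these, 65 rose at least 2-fold in DM. The other serum-free media sided with SFDM at the median. The 82 genes had medians of 1.36 in SFB and 1.16 in DMEM, and the 114 genes -1.19 and -0.55, with SFGM shared by all 3.

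A further set responded to SFDM without passing the test in DM. Of the 215 such rises of at least 2-fold, 127 had a response that differed from that in DM, in a direction that the choice of genes fixes. In that direction 19.0% of all genes passed, and the choice also favours a difference that passes. The 215 had few counts, with a median of 0.769 CPM over the 6 libraries, against 9.08 CPM for the 1622 that rose in both. Among the 231 falls of at least 2-fold without a call in DM, 164 differed from DM, again in a direction fixed by the choice. In that direction 20.9% of all genes passed. The median level of the 231 was 2.45 CPM, against 16.5 CPM for the 1216 that fell in both. For the remaining 88 rises and 67 falls neither the DM response nor the difference passed, which does not show that the responses were alike.

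The 5650 genes that did not pass between SFDM and SFGM were of more than one kind. For 3087 of them (54.6%) the 95% interval of the change lay within 1.5-fold in both directions. These had a median level of 28.6 CPM. For 1177 the interval reached 2-fold or more, so a change of that size was not excluded, and they had few counts, with a median of 0.459 CPM. Of the 3087 held within 1.5-fold, 209 changed at least 2-fold in DM against GM, 130 upward and 79 downward. The share of all genes with a change of that size was not counted, so the 209 are a description. At any size, 26.2% of the 5650 rose in DM against GM and 24.6% fell, where 34.2% and 35.5% of all genes did.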

How the data were processed

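The deposited file holds raw counts of reads for 27607 Ensembl gene identifiers in 18 libraries. The submitters' processing notes name STAR 2.7, featureCounts and the assembly bosTau9. The sources used here do not give aligner settings, annotation release or strand setting, so reads of overlapping genes, antisense partners or near-identical copies may be split or lost. Columns were matched to samples by the labels.

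Genes were kept by filterByExpr (minimum count 10, minimum total 15), which left 14637. With edgeR 4.0.16 in R 4.3.3, libraries were scaled by TMM and all 18 libraries entered 1 robust quasi-likelihood fit with a term for each group. Contrasts were two-sided, with Benjamini-Hochberg adjustment over all genes at 0.05, and were tried on simulated data. Minimum folds were tested with glmTreat. CPM use the TMM-scaled totals except where library totals are named. A floor of 3 counts over the 3 SFGM libraries is 0.0363 CPM, and floors and counting intervals cover counting error only. Fold classes use edgeR's moderated fold change. Each SE is the unmoderated log2 fold change divided by the square root of the test's F. It can be narrower than counting error where a group has few counts.

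The reference table held no Ensembl identifiers and 0 matched a symbol, so the planned symbol lists and named genes were not analysed here. By the fallback rule stated with them, groups were defined by level, fold and switching, and 4 identifiers were named: the 2 largest rises and 2 largest falls among those that passed the test, averaged 5 CPM or more in SFDM or SFGM, and did not overlap between them. The groups and lists were chosen with earlier results of these data known. Alternatives were RLE scaling, library totals alone, no or a stricter filter, DESeq2 1.42.0, the compared groups alone, the replicate letter as a block, other limits, and leaving out each library; thinning to the smallest library, the spread without the robust option, glmTreat and other filters for the level bands were added after the data were seen.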

Additional observations from a re-analysis of the deposited data

Results flagged for a closer look

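The responses to SFDM and to DM, each against its own 0 h medium, differed in 5841 genes by edgeR's test of the difference at an adjusted p under 0.05. Of these, 2779 had the higher log2 fold change in SFDM and 3062 the lower, a balance that turned to 2995 and 2913 with RLE scaling, 3138 and 3025 with DESeq2, and 3211 and 3151 with the compared groups alone. Among the 4 named identifiers, which were chosen for their change in SFDM, the difference passed for the 2 that fell. ENSBTAG00000009012 had a log2 fold change 4.6 lower in SFDM than in DM (log2 difference -4.6, SE 0.208, edgeR adjusted p = 2.17e-11), and its levels in SFGM and GM, 269 and 16.8 CPM, were further apart than those in SFDM and DM, 0.784 and 1.18 CPM. For ENSBTAG00000023659 the difference was -3.48 (SE 0.464, edgeR adjusted p = 1.23e-05), with 175 and 62.2 CPM at 0 h and 0.908 and 3.49 CPM at 72 h. The rises of ENSBTAG00000008329 and ENSBTAG00000016801 did not pass the test of the difference (edgeR adjusted p = 0.220 and 1), and both had 0 or very few counts at 0 h.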

How the results depend on the processing

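Under the alternatives run, no total of genes called, of 4-fold changes or of switched identifiers moved by over 1.5 times. The 4 named identifiers kept their direction and call. The balance of rises and falls did turn, to 4539 rises and 4373 falls with RLE scaling, 4586 and 4434 with DESeq2, and 4771 and 4725 with the compared groups alone. Against SFB, 2153 genes were higher in SFDM and 2909 lower. This turned to 2527 and 2335 with RLE scaling, 2667 and 2499 with DESeq2, and 1817 and 1617 with the compared groups alone. Against DMEM, 3280 and 3536 turned to 3705 and 3141 with RLE scaling and 3820 and 3222 with DESeq2, but not with the compared groups alone (2903 and 3021). Between SFDM and SFGM, 8164 to 9496 genes were called over the alternative settings and 8288 to 8492 when 1 library was left out, with 8492 without SFDM replicate A, the shallowest. Rises of at least 4-fold numbered 723 to 1168 and falls 251 to 485, with the stricter filter lowest and no filter highest. Identifiers switched on numbered 54 to 63 and those switched off 10 to 13. For SFDM against SFB the calls ranged from 3434 with the compared groups alone to 5220. With a library left out they ranged from 3912 to 6108, the highest without SFB replicate C. For SFDM against DMEM they ranged from 5924 to 7042, and from 5902 to 6590 with a library left out. For the difference from the DM response the ranges were 5590 to 6362 and 5269 to 5761. Without the 20 identifiers with the most counts, the rises of at least 2-fold held 4.72% of the counts in SFGM and 21.9% in SFDM, and the falls 12.6% and 4.37%. The replicate letters did not pair the libraries of SFGM and SFDM: deviations from the group means correlated at -0.0437, -0.0397 and -0.223 across genes for A, B and C. Between DMEM and SFDM the same letters gave 0.28, 0.0265 and 0.412, and between SFB and SFDM -0.193, -0.0947 and -0.45. Different letters reached -0.417 for DMEM A with SFDM C and 0.317 for SFB B with SFDM C. With the replicate letter as a block, 8817 genes were called between SFDM and SFGM, 8717 with the compared groups alone, 4841 against SFB, 6628 against DMEM and 5640 for the difference from DM. The depth of 16162525 to 28589018 counts limits genes under 1 CPM, and the missing gene names limit what the groups say of muscle.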
